A study of Mus musculus with 4 samples.

Results

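Ribosome-associated signal was examined for 45 genes of mitosis and chromosome segregation, chosen by name from the 55573 genes of the table and grouped by the job their proteins do in dividing cells. Primary myoblasts, cultured precursors of muscle fibres, were taken from the hind limbs of 3-week-old mice, cultured with fibroblast growth factor and collected on day 2 of proliferation. The wild-type (WT) and the knockout (KO) condition had 2 libraries each, the knockout being that of Eif5a, the gene of a translation factor that helps ribosomes past difficult stretches such as consecutive prolines. In the study, the floxed Eif5a gene is deleted by a tamoxifen-inducible Cre under the Pax7 promoter, which is active in muscle stem cells, so cells of other origin in the dish would keep the gene, and the WT mice are described both with and without the Cre allele. How many animals or cultures gave each library is not given in the sources used here, and the study speaks of duplicate experiments, so the spread between libraries may be partly technical and the p-values measure that spread alone. The sample titles name polysome sequencing, which reads whole mRNAs bound by several ribosomes, while the extraction text describes RNase I digestion and protected fragments, which is ribosome profiling. The values are called ribosome-associated signal because the sources differ on this. No RNA abundance was used here, and translation efficiency was therefore not computed. In such bulk samples, a change in the number of dividing cells and a change in signal per dividing cell cannot be told apart.

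A cell enters mitosis when cyclin-dependent kinase 1, bound to its cyclins, is switched on by Cdc25 phosphatases, after which condensins compact the chromosomes and kinesins build the spindle. Kinetochores attach the chromosomes to spindle fibres, and a checkpoint holds back the anaphase-promoting complex, the ubiquitin ligase that starts chromosome separation and cyclin destruction, until every chromosome is attached. Most of these genes are transcribed late in the cell cycle and are shut down when myoblasts leave the cycle to form muscle fibres.

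The targeted gene was looked at first. Eif5a had 34.9 and 65.2 RPKM (reads scaled by gene length and by the authors' library size) in WT libraries 1 and 2, and 60.3 and 59.4 RPKM in KO libraries 1 and 2. The KO values lay between the WT values, with a log2 fold change of 0.32 ± 0.48 (SE; adjusted p = 0.839, limma). The signal of Eif5a therefore does not separate the libraries by their label, and the second group is called the KO-labelled pair, its members KO libraries 1 and 2. The libraries held 642429 to 704006 recovered reads, of which protein-coding genes took 33.9% to 41.5% in WT and 59.2% to 65.4% in the KO-labelled pair. Reads on the 45 mitotic genes were few, namely 438 and 422 in WT libraries 1 and 2 and 1439 and 902 in KO libraries 1 and 2.

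Most of the mitotic genes were higher in the KO-labelled pair, by a modest amount, and no single gene passed the test at an adjusted p under 0.05. Of the 45 genes, 44 had a mean of at least 1 RPKM and were tested. The log2 fold change, KO minus WT on the log2(RPKM + 1) scale, was above 0 for 39 of the 44 (88.6%), against 50.0% of the 11363 genes tested and 53.8% of the protein-coding genes with at least 15 reads. Its median was 0.63 over the mitotic genes and 0.00026 over all genes tested. The median level of the 45 genes was 3.03 RPKM over the WT means and 4.62 RPKM over the KO means.

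At an adjusted p-value under 0.05, limma called 0 of the 44 mitotic genes, where it called 0.106% of all genes tested in either direction and 0.0088% as higher. The smallest adjusted p among them was 0.635. At an unadjusted p under 0.05, 4 were higher (Ube2c, Smc2, Ccna2 and Tpx2), beside 2.86% of all genes, and 0 were lower, beside 4.46% of all genes. With limma-voom on recovered reads, 0 passed the adjusted threshold as well, and at the unadjusted one 6 were higher, beside 3.48% of the genes in that fit, and 1 was lower, beside 6.66%. Without WT library 2, 6 were higher at the unadjusted threshold, beside 7.12% of all genes. Without WT library 1, KO library 1 or KO library 2 it was 1 gene each time, beside 3.93%, 1.8% and 2.36%. Both KO libraries lay above both WT libraries for 25 of the 44 genes (56.8%), where 20.1% of all genes tested and 23.2% of the protein-coding genes with at least 15 reads did so. The reverse order held for 1 gene, Cenpa, where 20.3% of all genes tested had it. In the remaining 18 the groups overlapped. The KO mean was over 2-fold higher for 17 of the 44 genes (38.6%, against 11.1% of all genes tested) and over 2-fold lower for 1 (against 18.2%).

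**Figure D1:**
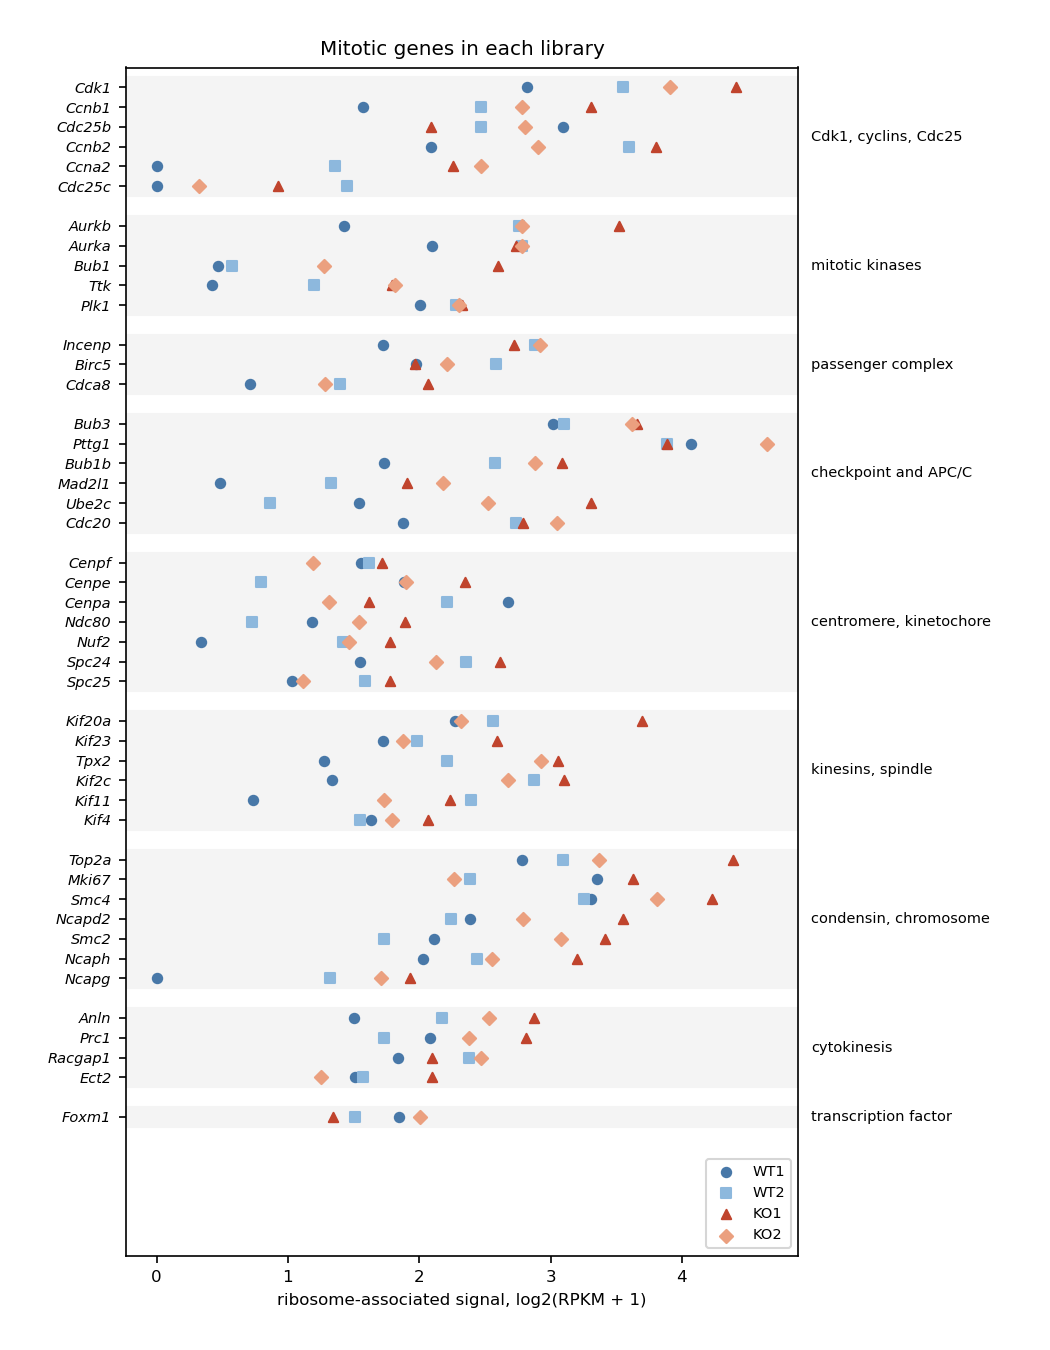
Ribosome-associated signal, as log2(RPKM + 1), of the 45 mitotic genes (rows, grouped by role and ordered by reads within a role) in each of the 4 libraries (1 symbol per library). KO library 1 holds the highest value for 31 of the 45 genes and WT library 1 the lowest for 29.

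The plot of each gene by library shows that the libraries of a group were not alike. WT library 1 had the lowest value of the 4 for 29 of the 45 genes, and KO library 1 had the highest for 31. The median mitotic gene stood at 2.31 and 3.73 RPKM in WT libraries 1 and 2, and at 5.14 and 4.21 RPKM in KO libraries 1 and 2. The smallest gap between the groups was that from WT library 2 to KO library 2, in which 30 of the 45 genes were higher with a median log2 difference of 0.28, and the widest was that from WT library 1 to KO library 1, in which 40 were higher with a median of 1.07. Within groups, WT library 2 was above WT library 1 by a median log2 difference of 0.54, and KO library 2 differed from KO library 1 by −0.42. The gap between the WT libraries was thus wider than the smallest gap between the groups. With WT library 1 left out, 34 of the 44 tested genes were above 0 with a median log2 fold change of 0.40, and with KO library 1 left out 37 were, with a median of 0.50.

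Cdk1 and the cyclins that drive entry into mitosis had higher means in the KO-labelled pair. Cdk1 (chr10:69335146-69352938, GRCm38, minus strand), the kinase at the centre of mitotic entry, had 6.05 and 10.8 RPKM in WT libraries 1 and 2 and 20.3 and 14.1 RPKM in KO libraries 1 and 2. Both KO values were above both WT values, and the log2 fold change was 0.98 ± 0.45 (SE; limma, unadjusted p = 0.0727, adjusted p = 0.676). Ccnb1, which codes for cyclin B1, the partner that carries Cdk1 into mitosis, had 1.97 and 4.53 RPKM in WT and 8.89 and 5.87 RPKM in the KO-labelled pair. It too did not overlap between the groups, with a log2 fold change of 1.03 ± 0.46 (SE).

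Ccna2 (chr3:36564865-36572150, GRCm38, minus strand) codes for cyclin A2, which acts from S phase into early mitosis. It was listed at 0 in WT library 1, where a floor of 3 reads would correspond to 1.22 RPKM, and at 1.56 RPKM in WT library 2, against 3.78 and 4.55 RPKM in KO libraries 1 and 2. The WT values rested on 3 reads in all and the KO values on 29. The log2 fold change was 1.69 ± 0.61 (SE; limma, unadjusted p = 0.0334, adjusted p = 0.672). Summed over each group and scaled by the authors' library sizes, the reads stood in a ratio of 6.05 (exact 95% interval 1.88 to 31.1), an interval that compares these libraries and covers counting error only, since amplified reads are not independent molecules. Cdc25b, a phosphatase that activates Cdk1, went the other way in its means, with 7.56 and 4.55 RPKM in WT and 3.25 and 5.98 RPKM in the KO-labelled pair. Its groups overlapped and its log2 fold change of −0.34 ± 0.45 (SE) was smaller than its error. Cdc25c, another phosphatase of this family, had 9 reads in all and was not tested.

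Among the mitotic kinases, 5 of 5 were above 0, with a median log2 fold change of 0.99. Aurkb, the Aurora kinase of the chromosomal passenger complex that corrects faulty attachments, had 1.69 and 5.76 RPKM in WT libraries 1 and 2 and 10.5 and 5.88 RPKM in KO libraries 1 and 2. The lower KO value only just exceeded the higher WT value, and the log2 fold change was 1.06 ± 0.57 (SE), or 0.39 to 1.72 with each library left out in turn. Bub1, a checkpoint kinase at kinetochores, had 0.381 and 0.487 RPKM in WT, from 1 read in each library, and 5.06 and 1.42 RPKM in the KO-labelled pair, from 20 and 5 reads. Its ratio of summed reads was 7.83, with an exact 95% interval from 1.95 to 68.2. Aurka, the Aurora kinase of spindle poles, had 3.28 and 5.87 RPKM in WT and 5.66 and 5.87 RPKM in the KO-labelled pair, and these ranges overlapped. The other 2 kinases, Ttk and Plk1, had log2 fold changes of 0.99 and 0.17.

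The partners of Aurkb in the passenger complex showed no common direction beyond their errors, and none of the 3 separated the groups. Incenp, the scaffold that activates Aurkb, had 2.30 and 6.37 RPKM in WT and 5.60 and 6.58 RPKM in the KO-labelled pair. Birc5, which codes for survivin, the subunit that brings the complex to centromeres, had 2.93 and 4.99 RPKM in WT and 2.92 and 3.64 RPKM in the KO-labelled pair. Cdca8, the gene of borealin, had 0.641 and 1.64 RPKM in WT, from 2 and 4 reads, and 3.19 and 1.43 RPKM in the KO-labelled pair, from 15 and 6 reads. The log2 fold changes were 0.52 ± 0.49, −0.19 ± 0.41 and 0.62 ± 0.59 (SE) in this order.

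In the spindle checkpoint and among the factors of the anaphase-promoting complex, 6 of 6 genes were above 0, and both KO libraries lay above both WT libraries for 5, beside 20.1% of all genes tested. Ube2c (chr2:164769898-164778822, GRCm38, plus strand), the ubiquitin-conjugating enzyme that starts chains for the anaphase-promoting complex, had 1.91 and 0.816 RPKM in WT libraries 1 and 2 and 8.91 and 4.76 RPKM in KO libraries 1 and 2. Both KO values were far above both WT values, and its log2 fold change of 1.72 ± 0.48 (SE; limma, unadjusted p = 0.0121, adjusted p = 0.635) was the highest of the tested members on this scale, whereas Bub1 and Ccna2 had higher ratios of summed reads. The WT values came from 4 reads and the KO values from 31, with a ratio of summed reads of 4.85 (exact 95% interval 1.72 to 18.9).

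Bub3, which brings the checkpoint kinases to kinetochores, had the tightest replicates of this class. It had 7.10 and 7.57 RPKM in WT and 11.6 and 11.3 RPKM in the KO-labelled pair, from 55 and 138 reads, with a log2 fold change of 0.58 ± 0.36 (SE). Bub1b, the gene of the checkpoint protein BubR1, had 2.33 and 4.96 RPKM in WT and 7.48 and 6.37 RPKM in the KO-labelled pair. Pttg1, the gene of securin, which holds back the enzyme that cuts cohesin, had the highest mean of the 45 genes in both groups, with 15.8 and 13.8 RPKM in WT and 13.8 and 24.1 RPKM in the KO-labelled pair. Bub1b did not overlap between the groups and Pttg1 did, with log2 fold changes of 0.83 ± 0.43 and 0.29 ± 0.44 (SE).

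Centromere and kinetochore genes held both directions. Cenpa (chr5:30666777-30674830, GRCm38, plus strand) codes for the histone H3 variant that marks the centromere, and was the lowest member by log2 fold change. It had 5.38 and 3.62 RPKM in WT libraries 1 and 2 and 2.07 and 1.48 RPKM in KO libraries 1 and 2, so that both KO values were below both WT values. The log2 fold change was −0.98 ± 0.42 (SE; limma, unadjusted p = 0.0578, adjusted p = 0.675), and the ratio of summed reads was 0.389 (exact 95% interval 0.203 to 0.724), from 29 WT and 18 KO reads. It kept this direction with each library left out in turn, between −1.21 and −0.74. Cenpe, the kinetochore motor that carries chromosomes to the spindle equator, had 2.69 and 0.739 RPKM in WT and 4.09 and 2.73 RPKM in the KO-labelled pair. The lower WT value of Cenpe rested on 3 reads. Cenpf, a large kinetochore protein, had 1.93 and 2.06 RPKM in WT and 2.29 and 1.28 RPKM in the KO-labelled pair. For Cenpe the lower KO value barely exceeded the higher WT value, and for Cenpf the WT values lay within the KO range. The 4 measured genes of the Ndc80 complex, which binds spindle fibres (Ndc80, Nuf2, Spc24 and Spc25), had log2 fold changes from 0.14 to 0.76.

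Of the 6 kinesin and spindle genes, 6 were above 0, with a median log2 fold change of 0.50. Both KO libraries lay above both WT libraries for 2 of the 6, beside 20.1% of all genes tested. Tpx2 (chr2:152847964-152895321, GRCm38, plus strand), which activates Aurora A on the spindle, had 1.42 and 3.63 RPKM in WT libraries 1 and 2 and 7.31 and 6.62 RPKM in KO libraries 1 and 2. Its log2 fold change was 1.25 ± 0.45 (SE; limma, unadjusted p = 0.0327, adjusted p = 0.672), and its ratio of summed reads was 2.92 (exact 95% interval 1.55 to 5.99). Kif20a and Kif23 are kinesins of the central spindle that are needed for the cell to divide. Kif20a had 3.82 and 4.89 RPKM in WT and 11.9 and 4.00 RPKM in the KO-labelled pair, and Kif23 had 2.31 and 2.96 RPKM in WT and 5.02 and 2.66 RPKM in the KO-labelled pair. In both, KO library 1 stood above the other libraries and KO library 2 lay within the WT range. Without KO library 1, the log2 fold change of Kif20a was −0.09, from 0.59 with it, and that of Kif23 was 0.018, from 0.38 with it.

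Condensin and chromosome structure genes held the most reads, and both KO libraries lay above both WT libraries for 6 of 7, beside 20.1% of all genes tested. Top2a, the topoisomerase that untangles sister chromosomes, had 5.89 and 7.54 RPKM in WT libraries 1 and 2 and 19.9 and 9.34 RPKM in KO libraries 1 and 2, from 64 and 231 reads. Smc4, a core ATPase of condensin, had 8.91 and 8.56 RPKM in WT and 17.8 and 13.1 RPKM in the KO-labelled pair. Smc2 (chr4:52439243-52488260, GRCm38, plus strand), the ATPase that pairs with Smc4, had 3.33 and 2.32 RPKM in WT and 9.66 and 7.46 RPKM in the KO-labelled pair. The 3 genes separated the groups.

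The log2 fold changes were 0.94 ± 0.47 for Top2a, 0.74 ± 0.38 for Smc4 and 1.32 ± 0.38 (SE) for Smc2. With each library left out in turn, that of Top2a ran from 0.43 (without KO library 1) to 1.45 (without KO library 2), and that of Smc4 from 0.53 to 0.95. Smc2 (limma, unadjusted p = 0.0136, adjusted p = 0.646) had a ratio of summed reads of 2.98 (exact 95% interval 1.75 to 5.37), and a log2 fold change between 1.13 and 1.51 with each library left out in turn. With the trend on coding GC content removed, as described below, Top2a was 0.58, Smc4 0.34 and Smc2 0.94. The subunits that complete condensin I, Ncapd2, Ncapg and Ncaph, had log2 fold changes from 0.64 to 1.16. Mki67, the coat protein of mitotic chromosomes that is stained as a proliferation marker, had no clear direction, with 9.23 and 4.22 RPKM in WT and 11.4 and 3.81 RPKM in the KO-labelled pair. Its values split each group more than they split WT from KO, with a log2 fold change of 0.08 ± 0.60 (SE) from 211 reads.

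The cytokinesis genes, whose proteins pinch the dividing cell apart, were 4 of 4 above 0 with a median log2 fold change of 0.43. Anln, the gene of the contractile ring protein anillin, had 1.83 and 3.51 RPKM in WT and 6.33 and 4.78 RPKM in the KO-labelled pair. Prc1, which bundles the fibres of the central spindle, had 3.23 and 2.32 RPKM in WT and 6.03 and 4.21 RPKM in the KO-labelled pair. Racgap1, a partner of Kif23 in the complex that positions the ring, had 2.58 and 4.20 RPKM in WT and 3.27 and 4.55 RPKM in the KO-labelled pair. Anln and Prc1 separated the groups, with log2 fold changes of 0.86 ± 0.42 and 0.69 ± 0.39 (SE), and Racgap1 did not, with 0.17 ± 0.41 (SE). Foxm1, a transcription factor that switches on many of these genes, had 2.59 and 1.84 RPKM in WT and 1.53 and 3.01 RPKM in the KO-labelled pair. The KO values of Foxm1 lay to either side of the WT values, and its log2 fold change of −0.0043 ± 0.48 (SE) was close to 0.

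**Figure D2:**
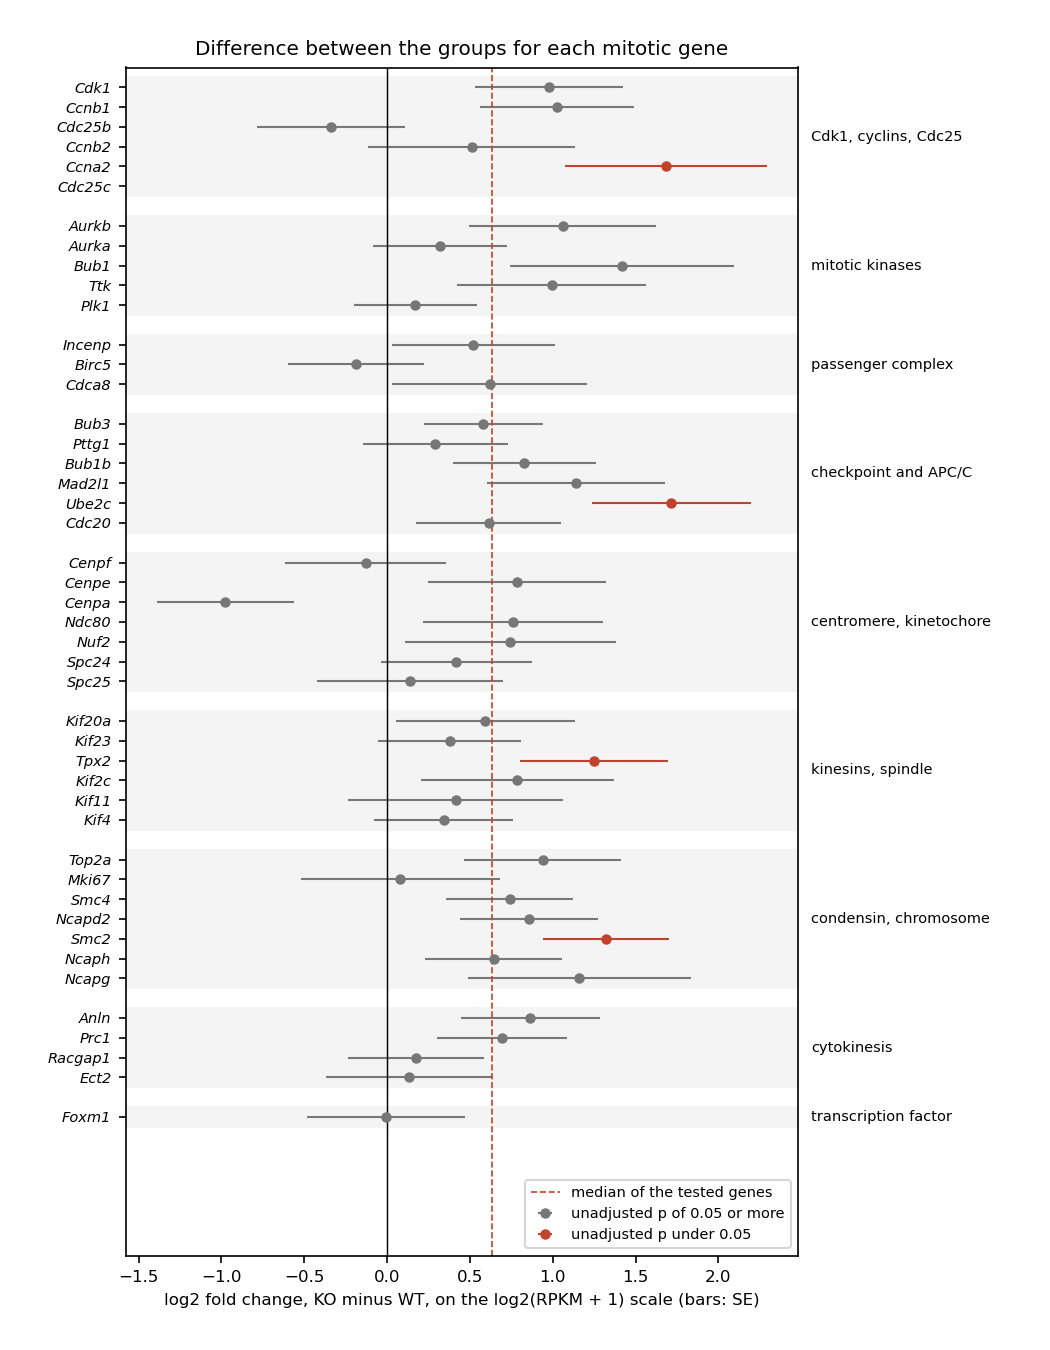
Log2 fold change, KO minus WT on the log2(RPKM + 1) scale, with its standard error from limma (bars), for the 44 tested mitotic genes by role (Cdc25c was not tested). Red points are the 4 genes with an unadjusted p under 0.05, the dashed line is the median of 0.63, and 39 points lie to the right of 0.

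The plot of fold changes by role shows how far the errors overlapped. Standard errors ran from 0.36 to 0.67 with a median of 0.47, so that small differences between members of the list were within their errors. Larger ones were not, as between Cenpe at 0.78 ± 0.54 and Cenpa at −0.98 ± 0.42 (SE), and no difference between members was tested. Leaving out a single library moved the log2 fold change by over 1.5 times for 37 of the 44 genes, and by less for the other 7 (Bub3, Ube2c, Cenpa, Ndc80, Smc4, Smc2 and Prc1). The sign turned for 14 of the 44 with at least 1 library left out. The 45 genes had 9 to 295 reads over the 4 libraries with a median of 54, and 43 of them had at least 20. Over the 43 the median log2 fold change was 0.64, and over the 25 genes with at least 50 reads it was 0.74. By the interval of the ratio of summed reads, which compares libraries and not conditions, 22 of the 45 genes lay above 1 (15.7% of all genes tested did), 1 below 1 (Cenpa; 17.7% of all genes tested) and 22 had an interval that held 1. In WT, the highest mean levels were those of Pttg1 (14.8 ± 1.39 RPKM; SD, n = 2), Smc4 (8.73 ± 0.254), Cdk1 (8.40 ± 3.33) and Bub3 (7.34 ± 0.333). In the libraries labelled KO, Pttg1 (19.0 ± 7.33 RPKM; SD, n = 2) was followed by Cdk1 (17.2 ± 4.44), Smc4 (15.4 ± 3.33) and Top2a (14.6 ± 7.49). These neighbours in the order did not differ beyond their spread, apart from the WT gap between Pttg1 and the genes after it. The order depended on the length used, since per kilobase of coding sequence Cenpa came first in WT, before Bub3, Pttg1 and Cdk1, and Smc4 came in place 12.

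As a share of the reads on protein-coding genes, the 45 mitotic genes together took 0.163% (95% Wilson interval 0.148% to 0.179%) in WT library 1, 0.194% (0.176% to 0.213%) in WT library 2, 0.313% (0.297% to 0.329%) in KO library 1 and 0.234% (0.219% to 0.250%) in KO library 2. The groups did not overlap. The means were 0.178% ± 0.0220 in WT and 0.273% ± 0.0555 in the KO-labelled pair (SD, n = 2 each), a ratio of 1.53. With 2 libraries against 2, an exact two-sided permutation test of such a value cannot give a p under 0.333. Without the 7 genes of the condensin and chromosome structure class the ratio was 1.47, and with each library left out in turn it ran from 1.31 to 1.75.

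**Figure D3:**
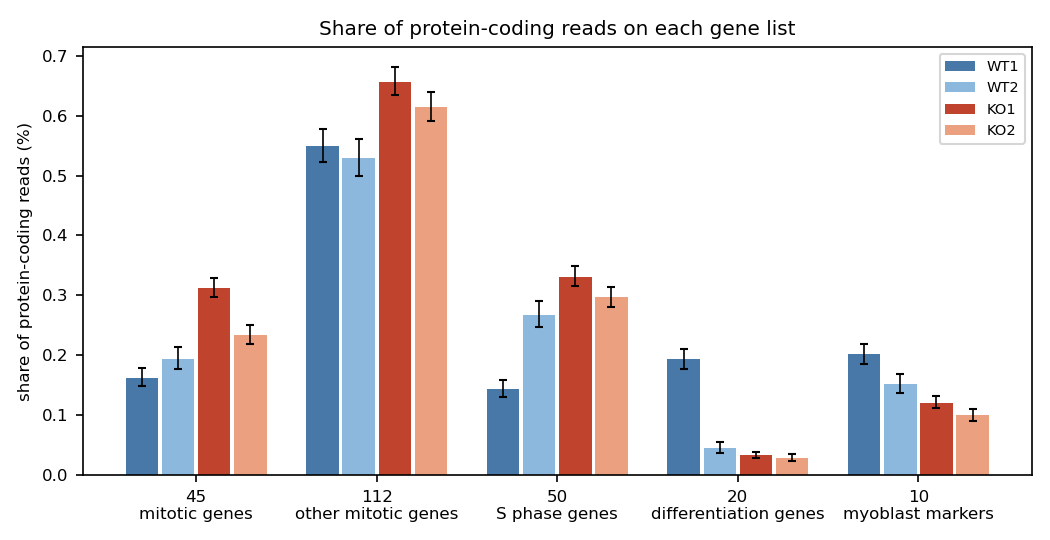
Share of protein-coding reads (percent) on 5 gene lists in each of the 4 libraries, with 95% Wilson intervals for counting error as bars. The 45 mitotic genes take 0.163% and 0.194% in WT and 0.313% and 0.234% in the KO-labelled pair, and the 20 differentiation genes take 0.193% in WT library 1 and at most 0.045% in the others.

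The rest of the mitotic machinery was read from a further list of 112 genes, of which 83 were tested. Of these, 64 were above 0, the median log2 fold change was 0.39, and both KO libraries lay above both WT libraries for 33, beside 20.1% of all genes tested. Their share of protein-coding reads was 0.539% ± 0.0143 in WT and 0.636% ± 0.0298 in the KO-labelled pair (SD, n = 2 each), a ratio of 1.18. At an adjusted p under 0.05 limma called 0 of them, and at an unadjusted p under 0.05 there were 5 higher and 2 lower, beside 2.86% and 4.46% of all genes tested. Of 10 tested entry kinases, cyclins, Cks proteins and their regulators 7 were above 0, with a median of 0.87, and the lowest gene of the whole list was among them. This was Cks2, a small subunit of cyclin-dependent kinases, named after its value was seen, with 14.4 and 27.6 RPKM in WT and 0 and 5.37 RPKM in the KO-labelled pair, from 18 reads in all. Its groups did not overlap, and its log2 fold change was −3.06 ± 0.89 (SE; limma, unadjusted p = 0.0147, adjusted p = 0.650). Among 14 tested subunits and cofactors of the anaphase-promoting complex, 10 were above 0, with a median of 0.44. Anapc4, a scaffold subunit, had 4.09 and 2.79 RPKM in WT and 12.7 and 12.6 RPKM in the KO-labelled pair. Cdc16, another subunit, had 7.48 and 4.79 RPKM in WT and 12.8 and 16.8 RPKM in the KO-labelled pair. Both separated the groups, with log2 fold changes of 1.64 and 1.16 (limma, unadjusted p = 0.00491 and 0.030, adjusted p = 0.549 and 0.672).

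Other centromere and kinetochore genes were above 0 in 18 of 20 tested, with a median of 0.67, and Cenpb stood on the other side. Cenpb, whose protein binds a short box in centromeric repeats, had 18.7 and 17.8 RPKM in WT and 3.84 and 8.36 RPKM in the KO-labelled pair, with a log2 fold change of −1.52 ± 0.46 (SE; limma, unadjusted p = 0.016, adjusted p = 0.650). As for Cenpa, both KO values lay below both WT values. Of 23 tested spindle genes, 18 were above 0, with a median of 0.33. Tacc3, which strengthens spindle fibres with clathrin, had 0.934 and 1.79 RPKM in WT and 7.45 and 5.93 RPKM in the KO-labelled pair, and a log2 fold change of 1.72 ± 0.41 (SE; limma, unadjusted p = 0.00602, adjusted p = 0.575). Cohesin genes had a median of 0.28, with 10 of 13 above 0, and the 3 genes of condensin II, the complex that shares Smc2 and Smc4 with condensin I, had values of −0.15 (Ncaph2), −0.04 (Ncapd3) and 0.94 (Ncapg2).

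Genes of S phase, the earlier stage in which DNA is copied, were mostly higher too, and 0 of them passed the adjusted threshold. Of 45 tested S phase genes 40 were above 0, with a median log2 fold change of 0.75, and 6 had an unadjusted p under 0.05, all higher, beside 2.86% higher of all genes tested. Rrm1, a subunit of the enzyme that makes the building blocks of DNA, had 1.81 and 6.17 RPKM in WT and 12.4 and 10.5 RPKM in the KO-labelled pair. Mcm4, part of the helicase that opens DNA, had 6.47 and 8.87 RPKM in WT and 20.3 and 17.2 RPKM in the KO-labelled pair. The groups did not overlap for either gene. Both KO libraries lay above both WT libraries for 24 of the 45 tested S phase genes, beside 20.1% of all genes tested. Pcna, another S phase gene with many reads, overlapped, with 16.6 and 46.0 RPKM in WT and 28.5 and 41.8 RPKM in the KO-labelled pair. The share of protein-coding reads on the S phase list was 0.144% and 0.267% in WT libraries 1 and 2 and 0.331% and 0.297% in KO libraries 1 and 2, so that WT library 2 was closer to the KO libraries than to WT library 1. The median of the list was 0.35 with WT library 1 left out.

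Genes that control the cycle before DNA synthesis were split in direction. Of 17 tested G1 cyclins, kinases and inhibitors 9 were above 0, with a median of 0.02. Both KO libraries lay above both WT libraries for 2 and below them for 4, beside 20.1% and 20.3% of all genes tested. Cdkn1a, the inhibitor p21 that stops the cycle and is switched on in differentiating myoblasts, had 142 and 116 RPKM in WT and 112 and 151 RPKM in the KO-labelled pair, and the groups overlapped. Rbl1, the gene of the pocket protein p107, had 1.38 and 2.13 RPKM in WT and 5.52 and 4.55 RPKM in the KO-labelled pair, with a log2 fold change of 1.14 ± 0.40 (SE; limma, unadjusted p = 0.029, adjusted p = 0.672). Cdkn2d, the gene of the inhibitor p19, named after its values were seen, had 5.27 and 4.05 RPKM in WT from 8 reads and was listed at 0 in both KO libraries (limma, unadjusted p = 0.00433, adjusted p = 0.538). For the partners of the DREAM and MYB-MuvB complexes, which hold late cell cycle promoters silent or switch them on, 2 of 7 were above 0, with a median of −0.29. No difference between lists was tested.

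Markers of muscle identity and differentiation also differed between the libraries. Of 13 tested genes of myogenic differentiation 3 were above 0, with a median of −1.24, and their summed level was 339.8 and 87.5 RPKM in WT libraries 1 and 2 against 55.5 and 51.1 RPKM in KO libraries 1 and 2. Myog, the factor that starts differentiation, had 91.0 RPKM in WT library 1, 4.26 RPKM in WT library 2, and 0.737 and 1.66 RPKM in the KO-labelled pair. WT library 1 thus stood apart for these genes and was also the library in which most mitotic genes were lowest. Without it the median of the mitotic genes was 0.40, as given above. Of the differentiation list, Tnnc2 was listed at 0 in the 4 libraries. Of 9 tested myoblast markers 1 was above 0, with a median of −1.03, and summed over the list they reached 264 and 210 RPKM in WT, and 122 and 135 RPKM in the KO-labelled pair. Pax7 had 8.49 and 3.62 RPKM in WT and 0.941 and 1.48 RPKM in the KO-labelled pair, and Myod1 had 140 and 117 RPKM in WT and 48.6 and 79.8 RPKM in the KO-labelled pair.

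Markers of other cell types were read as well. Summed over 12 fibroblast markers the level was 520 and 332 RPKM in WT and 835 and 387 RPKM in the KO-labelled pair, and 7 of 11 tested were above 0, with Tcf21 listed at 0 in the 4 libraries. Endothelial markers summed to 229 and 336 RPKM in WT and 343 and 411 RPKM in the KO-labelled pair, and 7 of 8 tested were above 0. Immune markers summed to 35.9 and 58.2 RPKM in WT and 43.4 and 39.6 RPKM in the KO-labelled pair, 2 of 5 tested were above 0, and Itgam and C1qa were listed at 0 in the 4 libraries. The lists of fibroblast and immune markers overlapped between the groups, and the endothelial sums did not. The part of cell composition in the difference of the mitotic genes was not tested.

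The scaling of the libraries moved the size of the difference. With each library scaled to the same read total, the median of all genes tested was 0.47 and that of the mitotic genes 1.12, while scaling to the same total over protein-coding genes gave −0.09 and 0.55. The mitotic genes stayed above the median of all genes under both. Of the 44 tested genes, 43 were above 0 under the same read total, as were 72.2% of all genes tested, and 19 were higher at an unadjusted p under 0.05, as were 14.8% of all genes tested. Under the same protein-coding total 1 was lower at that threshold, beside 5.37% of all genes, and with the minimum mean raised to 5 RPKM 1 was higher, beside 3.23%.

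**Figure D4:**
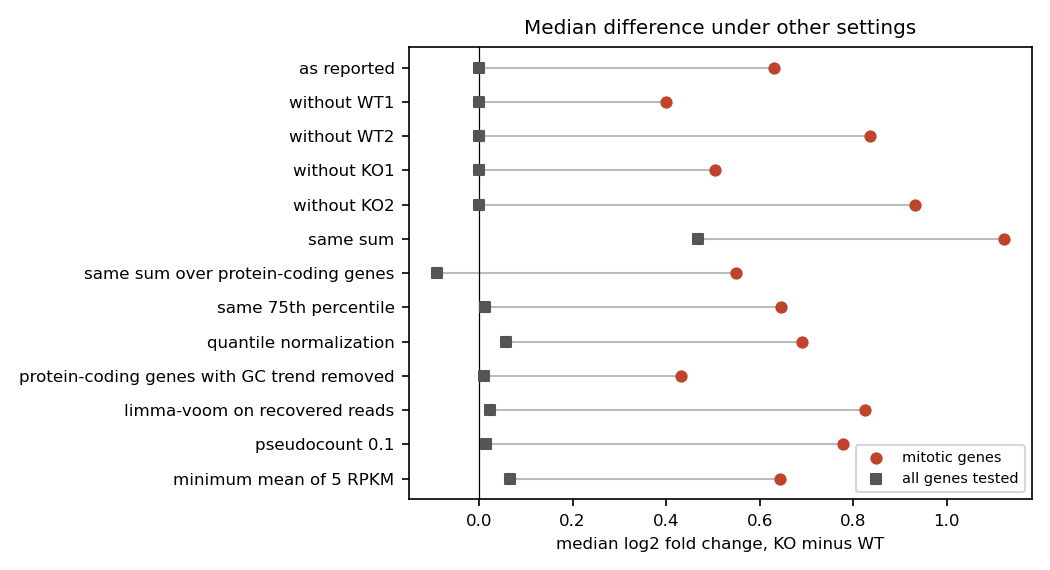
Median log2 fold change, KO minus WT, of the tested mitotic genes (red circles) and of all genes tested (grey squares) as reported, with each library left out, and under other scalings, filters and tests. The median of the mitotic genes runs from 0.40 without WT library 1 to 1.12 with libraries scaled to the same read total, and lies above that of all genes in each setting drawn.

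Base composition moved with the difference across all genes. The coding sequences of the tested mitotic genes had a median GC content of 48.3%, against 53.2% for 9869 tested protein-coding genes. Across those 9869 genes, GC content and log2 fold change had a Spearman rho of −0.36, and across the 44 mitotic genes of −0.27, as a description over genes that share the same libraries. Among genes of 38% to 45% GC the median log2 fold change was 0.77 for 14 mitotic genes, of which 13 were above 0, and 0.37 for all. Among genes of 45% to 52% it was 0.64 for 17 mitotic genes, of which 17 were above 0, and 0.23 for all. Among genes of 52% to 61% it was 0.42 for 13 mitotic genes, of which 9 were above 0, and −0.09 for all. The median of the mitotic genes was thus above that of all tested protein-coding genes in each range of GC. After removal of the trend on GC it was 0.43, with 37 of 44 above 0, beside 0.0098 over all genes in that fit. The part of base composition in the difference was not tested.

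**Figure D5:**
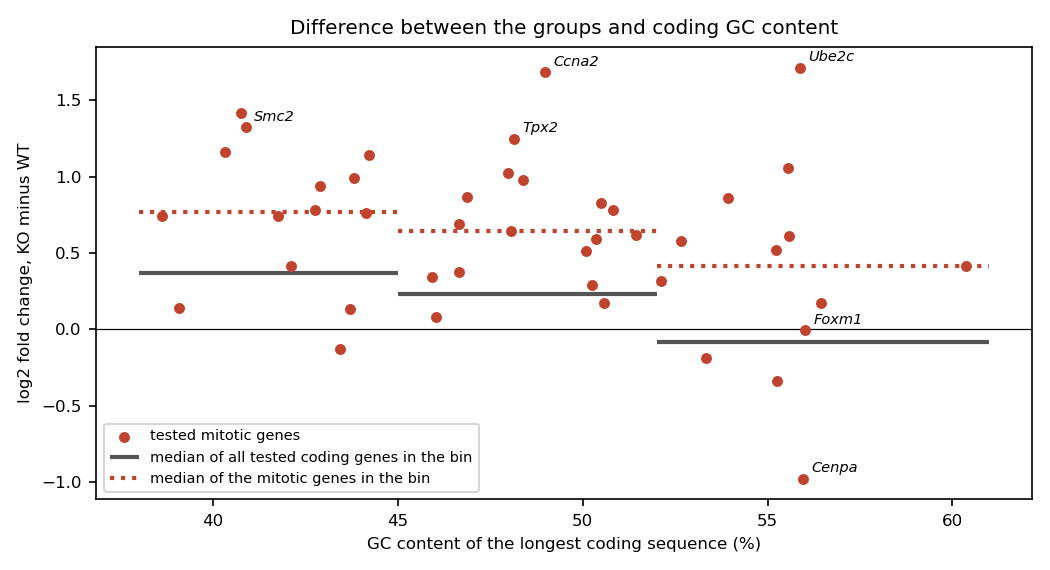
Log2 fold change, KO minus WT, against the GC content (percent) of the longest coding sequence for the 44 tested mitotic genes (points), with medians per GC range for these genes (dotted red) and for all tested protein-coding genes (solid grey). In each of the 3 ranges the dotted line lies above the solid line, at 0.77 over 0.37, 0.64 over 0.23 and 0.42 over −0.09.

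The coding sequences of the mitotic genes were also long and divided into many exons, with medians of 2044.5 bases and 16.5 exons against 1377 bases and 9 exons in all tested protein-coding genes. Runs of at least 3 consecutive proline codons, the kind of stretch at which ribosomes need eIF5A, were found in 3 of the 45 genes (6.67%), beside 25.8% of the tested protein-coding genes. Runs of at least 2 were about as common, in 71.1% and 72.6%. The 3 genes were Smc4 with 2 such runs, the longest of 6 proline codons at codons 64 to 69, Foxm1 with 4 at codons 689 to 692 and Kif20a with 4 at codons 717 to 720. Their log2 fold changes were 0.74, −0.0043 and 0.59. The longest runs of Smc4 and Foxm1 are shown from codon 57 to 76 and from codon 682 to 699 of the GENCODE M21 coding sequences, with the codons of that run in capitals.
Smc4: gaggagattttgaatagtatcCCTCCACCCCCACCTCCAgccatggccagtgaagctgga
Foxm1: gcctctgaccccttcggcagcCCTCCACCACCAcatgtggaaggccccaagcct

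The promoters of these genes shared sequence features that the choice of genes did not use. Late cell cycle promoters are known for 2 short elements, the cell cycle genes homology region (CHR; TTTGAA, or TTCAAA on the other strand, and the variant TTTAAA), which DREAM and MYB-MuvB bind, and the CCAAT box (ATTGG on the other strand), which the activator NF-Y binds. RefSeq promoters (GRCm38.p6) were at hand for 36 of the 45 genes, leaving out Aurkb, Ccna2, Cdc25c, Foxm1, Incenp, Kif20a, Smc4, Spc24 and Tpx2. From 250 bases before to 50 after the start, 30 of the 36 (83.3%) held a CHR motif, against 30.6% of the 27025 genes of the promoter table, 47.9% of 94 other mitotic genes and 26.8% of 41 S phase genes. Within 100 bases before to 50 after the start it was 27 of 36, against 14.7% of all genes of the table and 14.6% of the S phase genes. A CCAAT box stood within the longer window in 77.8% of the mitotic genes, 63.4% of the S phase genes and 41.1% of all genes. A match is a run of letters and not a shown binding site.

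The windows from 100 bases before the start to 30 bases from it on are shown for 6 genes, with CHR and CCAAT matches on either strand in capitals. Cdk1, Ube2c and Top2a are given because their signal separated the groups. Ccnb2 and Cdc20 are given because each holds a single CHR match in this window beside CCAAT boxes, as Ube2c and Top2a also do. Mad2l1, a checkpoint gene, is given because it holds no match. Ccnb2, Cdc20 and Mad2l1 were chosen after their values and sequences were seen. The windows lie at chr10:69352883-69353012 (Cdk1, minus strand), chr9:70421525-70421654 (Ccnb2, minus), chr4:118437314-118437443 (Cdc20, minus), chr2:164769829-164769958 (Ube2c, plus), chr11:99024160-99024289 (Top2a, minus) and chr6:66535121-66535250 (Mad2l1, plus), each printed from 5′ to 3′ on the strand of its gene.
Cdk1: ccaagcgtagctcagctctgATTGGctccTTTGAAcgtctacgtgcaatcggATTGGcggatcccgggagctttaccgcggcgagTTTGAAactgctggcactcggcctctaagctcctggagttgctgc
Ccnb2: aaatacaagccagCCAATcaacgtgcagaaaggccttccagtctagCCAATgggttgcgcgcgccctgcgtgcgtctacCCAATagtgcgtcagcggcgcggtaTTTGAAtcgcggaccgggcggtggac
Cdc20: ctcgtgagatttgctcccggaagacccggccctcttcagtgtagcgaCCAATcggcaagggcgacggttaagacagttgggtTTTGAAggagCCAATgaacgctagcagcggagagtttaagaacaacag
Ube2c: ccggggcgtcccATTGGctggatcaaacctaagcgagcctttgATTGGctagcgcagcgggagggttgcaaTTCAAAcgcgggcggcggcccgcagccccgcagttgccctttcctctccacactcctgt
Top2a: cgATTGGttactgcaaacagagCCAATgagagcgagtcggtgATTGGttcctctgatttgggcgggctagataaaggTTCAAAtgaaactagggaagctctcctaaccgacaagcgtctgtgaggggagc
Mad2l1: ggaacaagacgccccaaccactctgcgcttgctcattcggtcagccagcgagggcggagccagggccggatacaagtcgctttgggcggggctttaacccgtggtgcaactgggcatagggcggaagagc

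The values of the genes outside the naming rule are given here beside their sequences. Mad2l1, with no match in this window or in the longer one, had 0.395 and 1.52 RPKM in WT libraries 1 and 2 and 2.76 and 3.54 RPKM in KO libraries 1 and 2, with a log2 fold change of 1.14 ± 0.54 (SE). The WT values of Mad2l1 rested on 2 and 6 reads. Cenpa, the gene that was lower in both KO libraries, held a TTTAAA 17 bases before its start and a TTTGAA 16 bases after it. Ccnb2, the gene of cyclin B2, had 3.25 and 11.1 RPKM in WT and 13.0 and 6.47 RPKM in the KO-labelled pair, and its groups overlapped. Cdc20, the activator of the anaphase-promoting complex in mitosis, had 2.66 and 5.68 RPKM in WT and 5.90 and 7.29 RPKM in the KO-labelled pair, and its groups did not overlap. The log2 fold changes of Ccnb2 and Cdc20 were 0.51 ± 0.62 and 0.61 ± 0.44 (SE).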

How the data were processed

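Ribosome-associated RNA of 2 WT and 2 KO myoblast libraries was sequenced, as polysome RNA by the titles and as RNase-protected fragments by the extraction text, with groups and replicate numbers from the sample titles. The deposited table held RPKM values computed by the authors, after mapping with TopHat2 to mm10 and counting with HTSeq per the submitters' processing notes, whose versions and strand setting are not given in the sources used here. Reads from overlapping genes or near-identical copies could therefore not be traced. RPKM times gene length gave whole reads for 100% of values. The tolerance was 0.01 reads and grew with the count for larger counts, so that the largest values passed in any case. The authors' library size equalled the median-of-ratios size factor over 10490 genes times the geometric mean of the 4 totals. Per-sample columns outside the 4 libraries numbered 0. Of the identifiers, 99.8% were in GENCODE M21, and 99.6% of those had the same coordinates.

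The whole table was fitted with limma 3.58.1 in R 4.3.3 (lmFit, then eBayes with trend=TRUE). Values entered as log2(RPKM + 1), genes under a mean of 1 RPKM were left out, with Benjamini-Hochberg adjustment over 11363 genes. This scale understates changes of weakly read genes. Members and lists were chosen with earlier results of these data known, so no p over a list is given and no list was tested as a set. Genes given in full were, per role, the 3 with the most reads, and, over all roles, those with an unadjusted p under 0.05 and the lowest and highest fold change among genes with at least 20 reads. From other lists they were taken from the 4 with the most reads and those with an unadjusted p under 0.05 and at least 20 reads. GC content, exons and proline codons came from the longest coding sequence in GENCODE M21. Ratios of summed reads have exact conditional (binomial) intervals, and shares have Wilson intervals, both at 95%. The fitting was tested on simulated data. Alternatives were other pseudocounts, filters, scalings, a GC correction, limma-voom on recovered reads, a replicate block and each library left out.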

Additional observations from a re-analysis of the deposited data

How the results depend on the processing

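No alternative gave a mitotic gene an adjusted p under 0.05, and the median log2 fold change of the mitotic genes stayed above 0 in each. With libraries scaled to the same read total, the median was 1.12 for the mitotic genes, 1.17 for S phase genes and 0.90 for the other mitotic genes, 19 mitotic genes were higher at an unadjusted p under 0.05 (14.8% of all genes were) and 1 was below 0 (72.2% of all genes were above it). With a minimum mean of 5 RPKM fewer genes were tested, of which 18 were above 0, 1 below and 1 higher at an unadjusted p under 0.05 (3.23% of all genes). Limma-voom on recovered reads and scaling to the same protein-coding total each gave 1 gene lower at an unadjusted p under 0.05 (6.66% and 5.37% of all genes). Runs of at least 2 prolines were in 32 of the 45 genes. Ranked by reads per kilobase of coding sequence, 6 of the 10 highest WT genes were shared with the RPKM ranking.

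With each library left out in turn, the median was 0.40 to 0.93 for the mitotic genes and 0.35 to 1.01 for S phase genes. Genes higher at an unadjusted p under 0.05 numbered 1 to 6 (1.8% to 7.12% of all genes), and genes below 0 numbered 5 to 10 (10 without WT library 1). Eif5a ran from −0.12 (without WT library 1) to 0.76. The sign turned under at least 1 alternative for 14 of the 44 genes, 10 of the genes given in full and 4 others (Ccnb2, Kif11, Ect2 and Spc25, which ran from −0.24 to 1.26, −0.42 to 1.24, −0.29 to 0.56 and −0.19 to 0.47 with a library left out). Mki67 was −0.19 with the GC trend removed, −0.022 with the same protein-coding total, and −0.60 to 0.76 with a library left out. Foxm1 was 0.082 with the GC trend removed, 0.052 after quantile normalization, 0.0053 at the same 75th percentile, 0.40 at the same read total, and −0.34 to 0.33 with a library left out. At the same read total Cdc25b was 0.16, Birc5 0.30 and Cenpf 0.27, each, like Foxm1, under the median of 0.47 over all genes tested in that setting. With a library left out, Cdc25b, Birc5 and Cenpf ran from −0.70 to 0.017, −0.49 to 0.12 and −0.39 to 0.13. With a library left out, Kif20a ran from −0.094 to 1.28, Pttg1 from −0.091 to 0.68, Racgap1 from −0.095 to 0.44, Aurka from −0.022 to 0.66 and Incenp from −0.060 to 1.10. The lone library left in a group was assumed to vary like the pair in the other.

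The replicate numbers did not pair the libraries by any label, and the deviations of same-numbered libraries correlated at 0.0575 over 2 pairs. With the replicate block the median of the mitotic genes was 0.63, 39 were above 0 and 0 passed the adjusted threshold. Restricting to genes with at least 20 or 50 reads, and leaving out the condensin class, were alternatives chosen after seeing the data. The few reads per gene limit the precision of each single gene. The cause of these changes was not tested.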
